A study of Mus musculus with 2 samples.

Results

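The mouse genes named Zfp800 to Zfp999 are a numbered series of zinc finger genes, most of which code for KRAB zinc finger proteins. They were taken as every gene of the expression table whose symbol is Zfp followed by a number of 3 digits that starts with 8 or 9, which gave 88 members out of 32285 genes. Of these, 75 were measured, meaning at least 30 unique molecular identifiers (UMIs, each standing for 1 captured transcript) over both libraries with all barcodes counted. Among the other 13, Zfp936, Zfp969 and Zfp978 had 0 UMIs, and the limit fell between Zfp988 with 34 UMIs and Zfp985 with 26.

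KRAB zinc finger proteins bind DNA through a row of zinc fingers and carry a KRAB domain that recruits the scaffold protein TRIM28 (KAP1). TRIM28 in turn brings the histone methyltransferase SETDB1, which places the silencing mark H3K9me3, often on transposable elements. The genes for these proteins sit in clusters that expanded by duplication, and in mouse embryonic stem cells some of the clusters, including the one at the end of chromosome 4, were studied by deletion and are known to silence transposons.

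Single-cell RNA sequencing was done on dentate gyrus, the part of the hippocampus where granule neurons keep forming after birth, dissected from mice at postnatal day 5. One library came from wild type animals (control) and 1 from animals with a conditional knockout of Setdb1 (Setdb1_cKO). The sources used here do not give the Cre driver, the deleted exons, the strain or the number of animals per library. With 1 library per genotype there is no replicate check and no test, and all intervals cover counting error only.

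After filtering, 10824 control cells (72781871 UMIs, median 5932 per cell) and 9379 Setdb1_cKO cells (76494888 UMIs, median 6982) were kept, and 68 barcodes occurred in both libraries. Cells were assigned to classes by marker scores (astrocyte-like, radial glia-like, intermediate progenitor-like, neuroblast-like and granule neuron-like cells and 11 more, here shortened to astrocytes and so on), with 17.6% of control and 23.8% of Setdb1_cKO cells assigned to none. The control library held 1193 radial glia and 1300 astrocytes, 1335 intermediate progenitors, 2699 neuroblasts and 57 granule neurons, and the Setdb1_cKO library 877, 703, 768, 2078 and 284 in that order. The same class did not always fall into the same clusters of cells in both libraries when all kept cells were clustered together (Leiden clusters, numbered from 0). Of the radial glia, 61.6% of the control cells lay in cluster 5 and 72.6% of the Setdb1_cKO cells in cluster 23, and the shares that both libraries had in common over all clusters added up to 27.5%. Of the neuroblasts, clusters 6, 7 and 8 held 34.1%, 43.8% and 19.2% of the control cells, clusters 10, 19 and 21 held 55.6%, 7.99% and 28.5% of the Setdb1_cKO cells, and the shares in common added up to 4.84%. Granule neurons had 38.3% in common, with cluster 6 the fullest in the control and cluster 19 in the Setdb1_cKO library, and pyramidal or mossy neurons 47.1%, with cluster 9 the fullest in both. Astrocytes had 72.6% in common, intermediate progenitors 89.8%, oligodendrocyte progenitors 91.8%, endothelial cells 92.4%, microglia 93.5%, Cajal-Retzius cells 96.5% and fibroblasts 97.1%. GABAergic neurons had 44.6% in common, ependymal cells 49.2% and mural cells 54.0%. Ratios in radial glia, neuroblasts and granule neurons thus compare cells of largely different clusters. Those in GABAergic neurons, pyramidal or mossy neurons, ependymal cells and mural cells do so in good part. The part of this in the ratios was not tested.

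Xist had 16 UMIs in the control library and 94408 in the Setdb1_cKO library, and the Y-linked Ddx3y had 4181 and 0, so sex and genotype cannot be told apart. Setdb1 itself was at 54.6 counts per 1000000 UMIs of the class (CPM) in control radial glia and 17.8 in Setdb1_cKO radial glia, a ratio of 0.327 with a 95% counting interval of 0.264 to 0.402. Its ratio was 0.334 in astrocytes, 0.432 for intermediate progenitors, 0.581 for neuroblasts and 0.519 for granule neurons, against 1.03 in endothelial cells and 1.05 in fibroblasts.

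Most members had KRAB and zinc finger patterns in their protein. As the symbol Zfp stands for zinc finger protein, the zinc finger patterns are not independent of the choice by name. A KRAB pattern was found near the start of the longest open reading frame of 76 members and was not found in 12, among them Zfp800, Zfp821, Zfp827, Zfp830 and Zfp865. At least 1 C2H2 zinc finger pattern was found in 85 members, with a median of 11 and a highest count of 22, in Zfp808. The members lie on 14 chromosomes, and 53 of them form 6 runs of at least 4 members with gaps of at most 1 Mb. These runs hold 11 members on chromosome 2, 16 on chromosome 4, 5 on chromosome 7, 6 on chromosome 8, and 11 and 4 on chromosome 17, while 24 members stand alone. Reads were counted at the 3′ end, and 18 members shared at least 25% of the 90-base words of their last 500 bases with another gene. Of those 18, 16 lie in the chromosome 2 and 4 runs, so their counts are uncertain, because reads may be split between copies or dropped. No such word was shared for 62 members.

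Levels differed widely between members. As 3′ UMIs count molecules, levels are given as CPM with no scaling for length. The 88 members together had 122845 UMIs in kept cells with a median of 828, 41 members reached 1000 UMIs, and the 8 most abundant took 40.3% of the total. Zfp871, on chromosome 17, was the most abundant at 94.6 CPM in the control and 86.8 CPM in the Setdb1_cKO library. Zfp846, Zfp950 and Zfp821 followed at 40.4 to 43.8 CPM in the control and 41.0 to 48.9 CPM in the Setdb1_cKO library, in a different order in each. Then came Zfp830, which in mouse is needed for early embryonic cells to survive, Zfp800, a regulator of pancreas development in mouse, and Zfp945, at 26.6 to 32.1 CPM in either library. Zfp938 completed the 8 at 18.8 CPM and 26.6 CPM.

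The summed level of the members was nearly the same in both genotypes. All 88 members had 58479 UMIs (803 CPM) in control and 64366 UMIs (841 CPM) in Setdb1_cKO kept cells, a ratio of 1.05 (1.04 to 1.06). By class, radial glia had a summed ratio of 1.08 (1.04 to 1.12), astrocytes 1.11 (1.07 to 1.15), intermediate progenitors 1.03 (0.994 to 1.06), neuroblasts 1.04 (1.02 to 1.07) and granule neurons 1.2 (1.08 to 1.33). The 277 Zfp genes with a number under 800 stood at 0.945, 0.991, 0.981, 0.953 and 1.09 in the same order of classes. The 76 members with a KRAB pattern stood at 1.11, 1.18, 1.06, 1.08 and 1.27, and the 12 without at 0.939, 0.849, 0.901, 0.904 and 0.953. The ratio was thus above 1 for members with a KRAB pattern and below 1 for those without in each of these 5 classes, but the interval of the latter included 1 in radial glia (0.859 to 1.03) and granule neurons (0.765 to 1.2). The members with a KRAB pattern include all 16 of a run on chromosome 4 with high ratios, described below. Their ratio is not given without that run, so the contrast cannot be read as a trait of all KRAB genes. The median log2 ratio over genes of at least 100 UMIs lay between -0.08 and 0.00 in these 5 classes.

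Past a 1.5-fold difference, more members were higher than lower in the Setdb1_cKO library in each of these 5 classes. Radial glia and neuroblasts were compared across largely different clusters, as given above. In radial glia 10 of 62 measured members were higher, where 6.27% of all measured genes were, and 2 were lower, where 8.04% of all were. Intermediate progenitors had 6 of 57 higher against 4.8% of all genes, and 3 lower against 7.51%. Among 64 members in neuroblasts, 7 were higher against 6.26% and 2 lower against 5.97%. In granule neurons, where the control class held 57 cells and 563693 UMIs, 12 of 35 were higher against 11.1% and 3 lower against 15.2%. Astrocytes had 9 of 60 higher against 6.77%, and 0 lower against 5.86%. The other classes with more than 12 measured members went either way. Pyramidal or mossy neurons had 11 of 58 higher against 6.33% and 3 lower against 8.64%, Cajal-Retzius cells 5 of 48 higher against 5.33% and 2 lower against 4.2%, and oligodendrocyte progenitors 6 of 40 higher against 5.13% and 0 lower against 5.66%. GABAergic neurons had 5 of 24 higher against 9.15% and 3 lower against 10.9%. Endothelial cells had instead 2 of 27 higher against 5.34% and 7 lower against 6.69%, and fibroblasts 1 of 19 higher against 7.29% and 5 lower against 5.57%. Of the measured Zfp genes among the other 277, 3.93% were higher in radial glia and 4.44% in astrocytes, as were 3.81% in intermediate progenitors and 2.39% in neuroblasts. In granule neurons, however, 25.5% of the other Zfp genes were higher and 6.83% lower, near the 34.3% and 8.57% of the members. Members have few UMIs, and low counts spread more. With members and background both held to 30 to 300 UMIs, a limit set after the values were seen, radial glia had 10 of 53 higher against 10.7% of all genes in that range, astrocytes 9 of 51 against 12.2%, intermediate progenitors 5 of 42 against 8.57%, neuroblasts 7 of 31 against 13.9%, and granule neurons 12 of 34 against 12.9%. The median log2 ratio of the measured members was 0.07, 0.14, 0.11, 0.09 and 0.21 in those 5 classes, beside -0.08, 0.00, -0.04, -0.03 and -0.07 for all genes. Of the higher members, 4 of the 10 in radial glia and 4 of the 9 in astrocytes belonged to the run on chromosome 4, as did 3 of the 6 in intermediate progenitors and 3 of the 7 in neuroblasts, and these classes measured 6, 5, 4 and 5 members of that run. Outside the run, 6 of 56 members (10.7%) were higher and 2 lower in radial glia, 5 of 55 (9.09%) and 0 in astrocytes, 3 of 53 (5.66%) and 3 in intermediate progenitors, 4 of 59 (6.78%) and 2 in neuroblasts, and 10 of 33 (30.3%) and 3 in granule neurons. Without the run, the shares of higher members in intermediate progenitors and neuroblasts were thus near those of all genes.

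**Figure D1:**
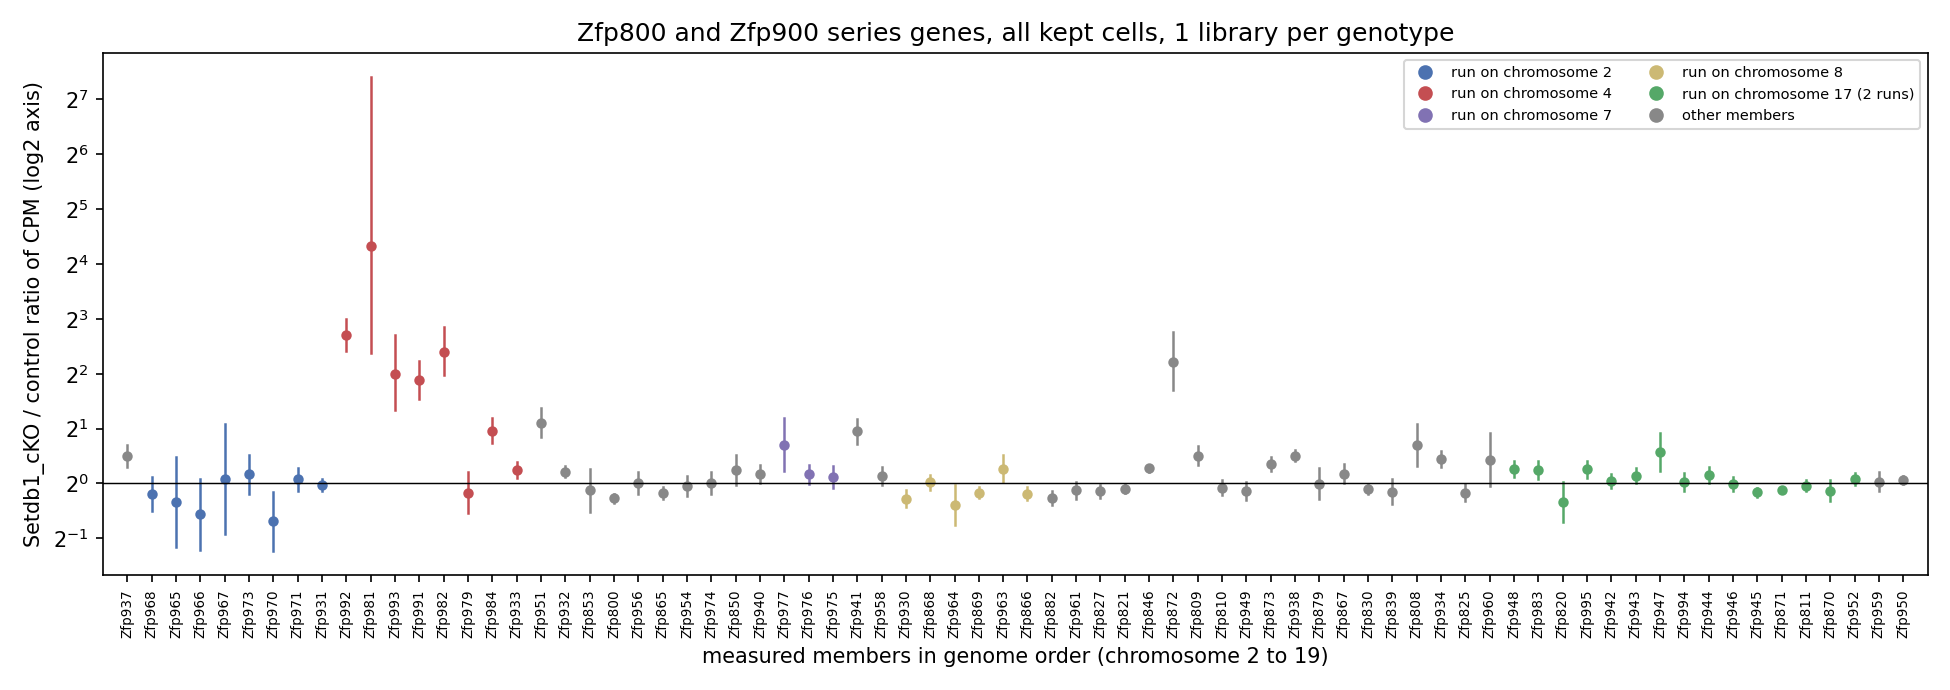
Ratio of CPM in the Setdb1_cKO to the control library (log2 axis) for the 74 members with at least 30 UMIs in all kept cells, ordered along the genome and coloured by run, with bars for the 95% counting interval. Members of the chromosome 4 run stand highest, from Zfp981 at 20 and Zfp992 at 6.52 down to Zfp979 at 0.892, and most others lie near 1, with Zfp872 at 4.63, Zfp951 at 2.15 and Zfp941 at 1.93 apart.

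The 16 members of the run on distal chromosome 4 (chr4:145510759-147848366, mm10), from Zfp990 to Zfp933, all had a KRAB pattern. Promoters of 5 of them are shown to let related and unrelated starts within the run be compared: Zfp982, which was higher, Zfp979, Zfp985 and Zfp984, and Zfp933, the most abundant. None is shown for Zfp992 and Zfp991. RefSeq promoters (GRCm38.p6, the 250 bases before the start of transcription) were matched within 500 bases of the annotated start for 8 of the 16. For 7 of these, Zfp979, Zfp980, Zfp982, Zfp984, Zfp985, Zfp987 and Zfp988, every pair was 73.2% to 90.8% identical, against a median of 50.4% and a highest value of 74.4% over 2278 pairs of members from different runs. The longest stretch that all 7 share, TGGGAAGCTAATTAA, is in capitals in the first 4 of these sequences, and the fifth, of Zfp933, does not hold it. The windows are chr4:147492167-147492416 on the plus strand for Zfp982, chr4:147642509-147642758 on the minus strand for Zfp979, chr4:147553027-147553276 on the plus strand for Zfp985, chr4:147809789-147810038 on the minus strand for Zfp984 and chr4:147848419-147848668 on the minus strand for Zfp933.
Zfp982: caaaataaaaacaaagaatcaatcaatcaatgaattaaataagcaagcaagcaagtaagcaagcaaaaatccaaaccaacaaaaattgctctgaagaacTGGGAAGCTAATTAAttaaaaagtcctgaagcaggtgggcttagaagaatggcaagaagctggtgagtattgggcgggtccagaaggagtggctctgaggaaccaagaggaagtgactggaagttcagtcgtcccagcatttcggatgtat
Zfp979: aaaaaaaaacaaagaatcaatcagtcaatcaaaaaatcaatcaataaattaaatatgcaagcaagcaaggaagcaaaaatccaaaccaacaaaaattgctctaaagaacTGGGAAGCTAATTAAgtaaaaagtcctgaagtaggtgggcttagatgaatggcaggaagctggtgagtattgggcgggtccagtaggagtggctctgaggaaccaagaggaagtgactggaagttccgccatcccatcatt
Zfp985: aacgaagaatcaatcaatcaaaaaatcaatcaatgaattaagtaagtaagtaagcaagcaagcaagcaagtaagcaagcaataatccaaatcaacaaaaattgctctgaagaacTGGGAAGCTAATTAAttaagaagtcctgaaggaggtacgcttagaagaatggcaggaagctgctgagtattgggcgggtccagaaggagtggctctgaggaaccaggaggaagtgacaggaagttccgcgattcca
Zfp984: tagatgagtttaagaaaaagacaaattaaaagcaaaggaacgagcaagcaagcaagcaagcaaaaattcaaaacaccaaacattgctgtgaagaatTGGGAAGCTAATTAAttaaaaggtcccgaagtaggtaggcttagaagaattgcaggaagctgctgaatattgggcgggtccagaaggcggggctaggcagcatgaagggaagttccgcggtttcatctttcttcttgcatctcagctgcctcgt
Zfp933: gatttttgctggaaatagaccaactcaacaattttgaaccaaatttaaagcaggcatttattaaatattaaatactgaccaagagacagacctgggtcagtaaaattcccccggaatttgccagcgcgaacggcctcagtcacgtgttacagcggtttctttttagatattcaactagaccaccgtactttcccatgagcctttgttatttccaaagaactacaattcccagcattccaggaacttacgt
Searched on both strands, the 15-base stretch occurred in 12 of 32851 promoter entries of the table (0.0365%). All 12 belong to genes of the same stretch of chromosome 4: 8 members, among them Zfp981, and the other genes Gm13212, Rex2, Zfp534 and Zfp600. The Zfp933 promoter was 47.6% to 53.2% identical to the other 7, about as members of different runs are. The 8 matched promoters of the run had a median of 2.5 CG dinucleotides in 250 bases, against 6 over all promoters and 7 over the 70 matched member promoters. A match describes these letters only.

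For the chromosome 4 run, the summed level of the Setdb1_cKO library was the higher one in 9 neural classes. This part of chromosome 4 is known to differ between mouse strains, and with the strain of the libraries not given, strain and genotype cannot be told apart in the ratios of the run. In radial glia it was 143 UMIs (18.8 CPM) in control and 326 UMIs (49.3 CPM) in Setdb1_cKO, a ratio of 2.61 (2.14 to 3.20). Intermediate progenitors had 164 and 298 UMIs, with a ratio of 2.78 (2.29 to 3.38). Neuroblasts had 303 and 518 UMIs, with a ratio of 1.96 (1.70 to 2.27). The granule neurons of the control library held 3 UMIs of the run, so that their ratio of 7.53 (2.52 to 37.0) rests on very few molecules. Astrocytes stood at 113 and 227 UMIs (11.9 and 37.0 CPM), a ratio of 3.10 (2.46 to 3.92). The same ratio was 3.31 (2.09 to 5.33) in oligodendrocyte progenitors, 2.27 (1.08 to 5.50) in GABAergic neurons with 8 control UMIs, 2.25 (1.75 to 2.92) in pyramidal or mossy neurons and 1.56 (1.11 to 2.19) in Cajal-Retzius cells, the early-born Reln-expressing neurons. Pyramidal or mossy neurons differed in depth between the libraries, with a median of 6919 UMIs per cell in the control and 14737 in the Setdb1_cKO library, and the part of this in their ratios was not tested. Outside the neural lineage the interval of each ratio given here included 1: the run stood at 40.8 CPM and 36.5 CPM in endothelial cells (ratio 0.895, 0.640 to 1.24), 26.4 and 28.9 CPM in fibroblasts (1.10, 0.703 to 1.72), and 26.4 and 36.0 CPM in microglia (1.36, 0.856 to 2.21). In control cells those 3 classes thus held the run at 26.4 to 40.8 CPM, on 29 to 133 UMIs, beside 18.8 CPM in radial glia and 11.9 CPM in astrocytes. Of the 133 control UMIs in endothelial cells, however, 70 were those of 1 member, Zfp979.

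**Figure D2:**
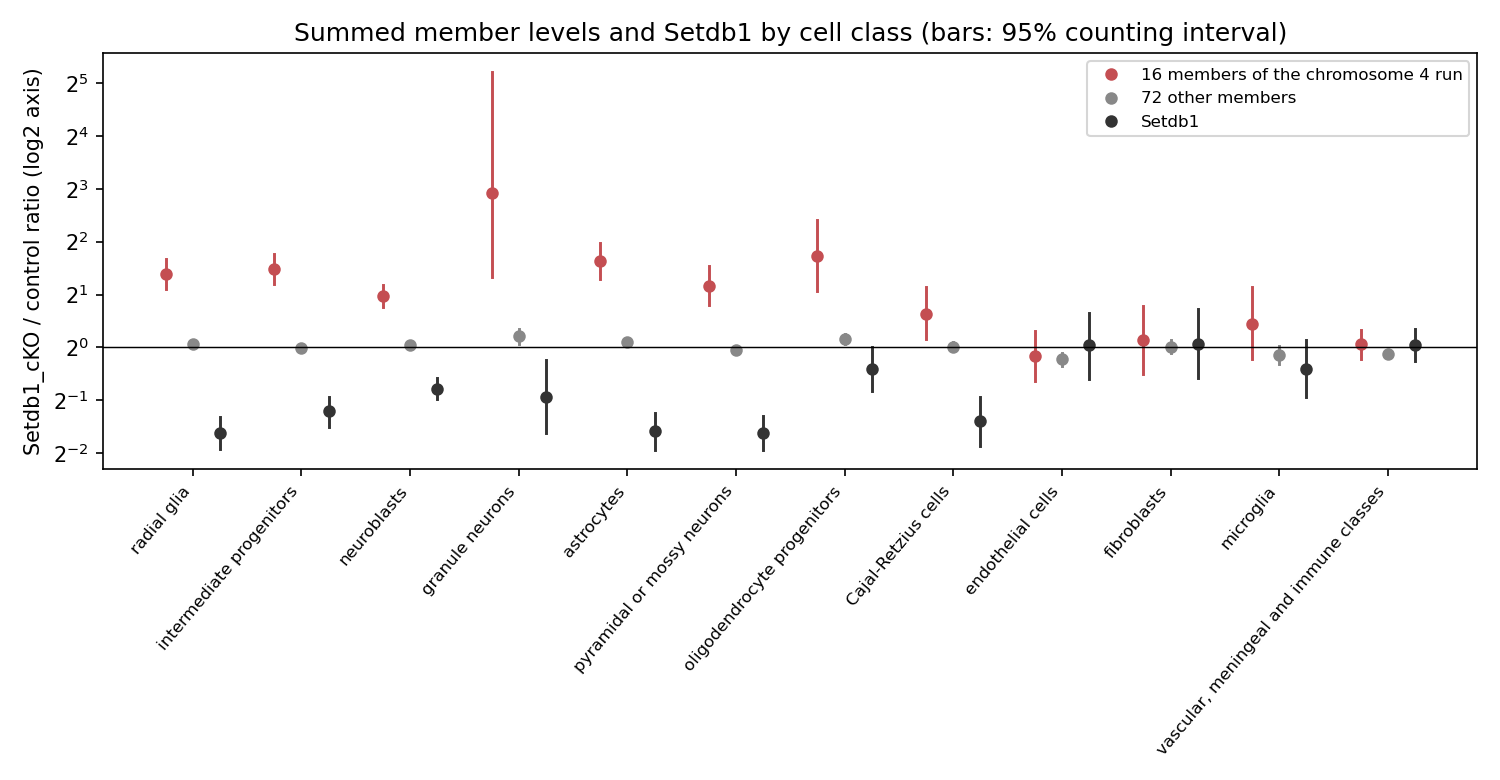
Ratio of CPM in the Setdb1_cKO to the control library (log2 axis) by cell class for the summed 16 members of the chromosome 4 run, the 72 other members and Setdb1, with bars for the 95% counting interval. The run stands at 1.96 to 3.31 in astrocytes, radial glia, intermediate progenitors, neuroblasts, pyramidal or mossy neurons and oligodendrocyte progenitors and at 0.895 to 1.36 in endothelial cells, fibroblasts and microglia, while the other members stay near 1.

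The Setdb1 ratio and the ratio of the run did not go in step among the neural classes, and a link between them was not tested. Oligodendrocyte progenitors had a Setdb1 ratio of 0.757 (0.563 to 1.01) beside their ratio of 3.31 for the run, and Cajal-Retzius cells 0.379 (0.274 to 0.518) beside 1.56. The 72 members outside the run stood at 1.04 in radial glia and 1.07 in astrocytes, at 0.994, 1.03 and 1.15 in intermediate progenitors, neuroblasts and granule neurons, and at 1.02 (1.01 to 1.03) over all kept cells. The other runs were near 1 over all kept cells as well: 0.967 on chromosome 2, 1.14 on chromosome 7, 0.911 on chromosome 8, and 1.04 and 0.943 on chromosome 17. The libraries hold different shares of each class, which moves values over all kept cells.

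Within the run, the highest UMI count after Zfp933 was that of Zfp992 (chr4:146449023-146470292, plus strand), whose 3′ end shares no 90-base word with another gene. Radial glia held 8 Zfp992 UMIs in the control and 94 in the Setdb1_cKO library, that is 1.05 and 14.2 CPM, a ratio of 13.5 (6.56 to 32.1). Intermediate progenitors held 15 and 92 UMIs (ratio 9.38, 5.40 to 17.4), and neuroblasts 21 and 147 (8.04, 5.07 to 13.4). In astrocytes it was 4 against 50 UMIs (19.3, 7.08 to 73.5). These 4 classes were therefore all higher in the Setdb1_cKO library, from 8.04-fold to 19.3-fold. The control granule neurons had 0 Zfp992 UMIs beside 31 in the Setdb1_cKO library, at least 1.96-fold higher when the 0 is taken as 3 counts over the class. Cajal-Retzius cells had 10 and 13 UMIs (1.2, 0.486 to 3.05), fibroblasts 10 and 16 (1.42, 0.608 to 3.51), and microglia 10 and 16 (1.13, 0.482 to 2.78). Summed over the 5 vascular, meningeal and immune classes, Zfp992 stood at 35 and 48 UMIs, a ratio of 1.84 (1.17 to 2.93), well under its ratios in the main classes.

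Zfp982, tied in mouse embryonic stem cells to the expression of pluripotency genes, has a 3′ end with no shared word and a promoter with the 15-base stretch. It had 8 and 57 UMIs in radial glia (1.05 and 8.61 CPM, ratio 8.17, 3.88 to 19.8), 7 and 47 in neuroblasts (7.72, 3.47 to 20.2) and 8 and 30 in astrocytes (5.78, 2.59 to 14.6). In the vascular, meningeal and immune classes together it had 19 and 14 UMIs, a ratio of 0.990 (0.459 to 2.08). Intermediate progenitors held 2 and 16 UMIs (12.2, 2.88 to 109.7), and pyramidal or mossy neurons 3 and 38 (4.28, 1.36 to 21.7). The interval included 1 in Cajal-Retzius cells, with 2 and 6 UMIs, in GABAergic neurons, with 1 and 7, and in oligodendrocyte progenitors, with 1 and 5, and granule neurons held 0 and 11. So Zfp982 was higher in the Setdb1_cKO library in those 5 neural classes, and the counts of the other 4 were too low to show a difference. Zfp991 had 10 and 39 UMIs in radial glia (4.47, 2.19 to 10.0), 13 and 34 in intermediate progenitors (4.0, 2.06 to 8.26), 11 and 70 in neuroblasts (7.31, 3.85 to 15.3) and 8 and 33 in astrocytes (6.36, 2.88 to 15.9). As 65.7% of its 3′ words are shared with another gene, its counts are less certain than those of Zfp992 and Zfp982.

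Zfp984 and Zfp979 differed from these 3. Zfp984 was already present in control cells and was higher by less: 30 and 37 UMIs in radial glia (1.41, 0.850 to 2.37), 21 and 31 in astrocytes (2.28, 1.27 to 4.17), and 17 and 143 in pyramidal or mossy neurons (2.84, 1.71 to 5.01). Zfp979 had most of its control UMIs in endothelial cells, the cells that line blood vessels. They held 70 of the 128 control UMIs of Zfp979, at 21.5 CPM, which was 25.7 times (17.9 to 37.1) the level in all other kept control cells. In the Setdb1_cKO library the same cells held 21 UMIs at 14.2 CPM, a ratio of 0.661 (0.386 to 1.09). Mural cells, the other vascular class, held Zfp979 as well, with 13 control UMIs at 12.2 CPM. Of the control mural cells, 29.3% lay in cluster 13, which held 96.5% of the control endothelial cells. Zfp979 had 11 and 21 UMIs in radial glia (2.19, 1.01 to 5.03) and 5 and 16 in astrocytes (4.94, 1.73 to 17.2), which left it far under its endothelial level. Over all kept cells, of which 200 were endothelial in the control and 99 in the Setdb1_cKO library, Zfp979 stood at 0.892 (0.689 to 1.15).

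Zfp933, at the end of the run and with an unrelated promoter, was the most abundant member of the run in control cells. It had 71 and 62 UMIs in radial glia (ratio 1.0, 0.700 to 1.43), 213 and 163 in neuroblasts (0.879, 0.713 to 1.08) and 66 and 55 in astrocytes (1.29, 0.882 to 1.87). Only in intermediate progenitors, with 94 and 87 UMIs (1.42, 1.05 to 1.92), and in granule neurons, with 1 and 39 UMIs (7.41, 1.25 to 299.9), did the interval exclude 1 among the 5 main classes. Without Zfp933 the summed ratio of the run was 4.2 in radial glia and 5.64 in astrocytes, and 4.61 and 4.53 in intermediate progenitors and neuroblasts. Zfp933 and its neighbours thus gave very different ratios within 1 stretch of chromosome.

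The remaining members of the run were rare. Over all kept cells Zfp993 had 24 and 101 UMIs (4.0, 2.55 to 6.54), but all of its 3′ words are shared. Zfp981 had 2 and 42 UMIs, a ratio of 20 (5.2 to 170.4). Zfp990 had 2 and 16, Zfp988 6 and 23, Zfp985 8 and 16, Zfp987 0 and 4, Zfp989 1 and 3, and Zfp980 and Zfp986 0 and 1 each. Zfp978 had none. Of the 16 members, 8 were measured over all kept cells. Of these 8, 6 were past 1.5-fold higher, where 11.1% of all measured genes were, and 0 were lower, where 8.8% were. The other members of the run had too few UMIs to be counted.

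**Figure D3:**
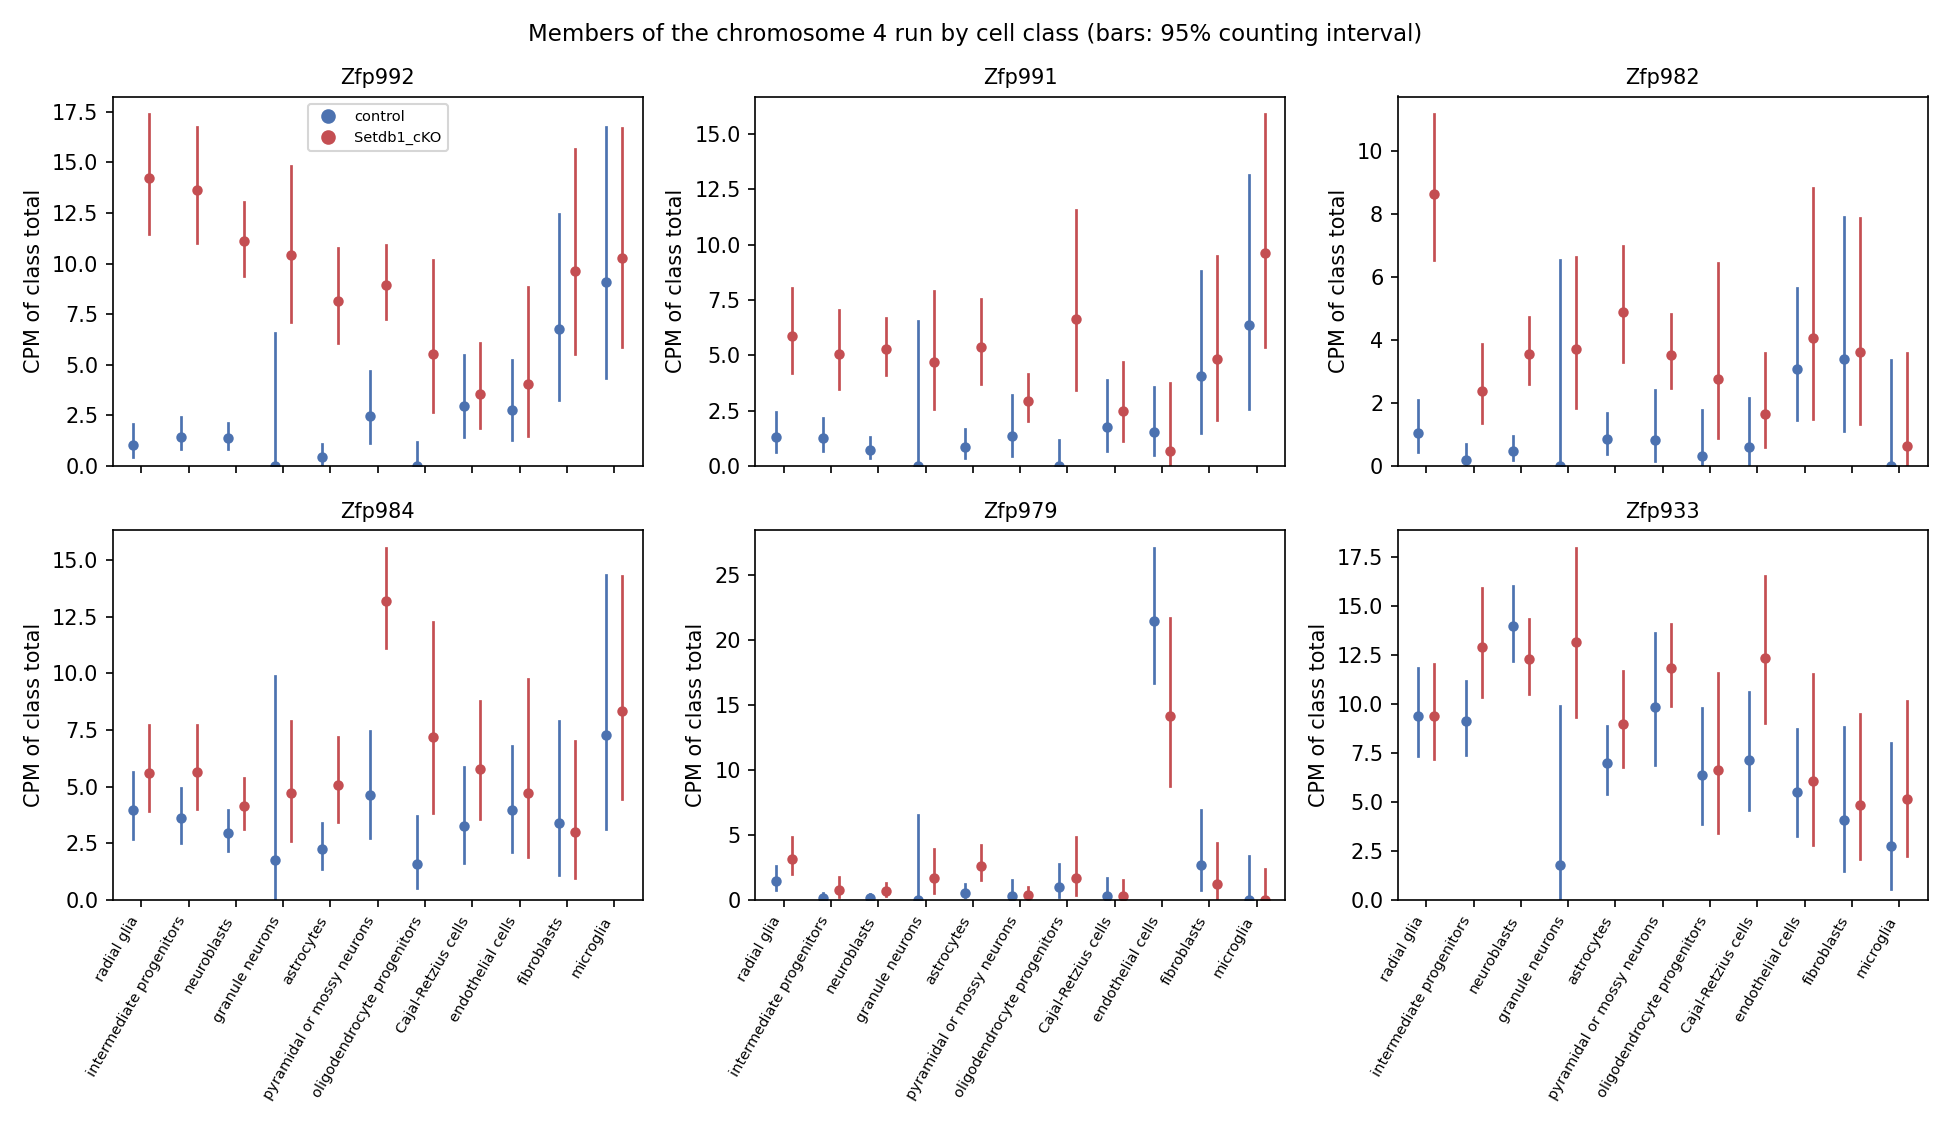
CPM of 6 members of the chromosome 4 run in 11 cell classes of the control and Setdb1_cKO libraries, with bars for the 95% counting interval of each count. Zfp992, Zfp991 and Zfp982 stand apart by genotype in astrocytes, radial glia, intermediate progenitors and neuroblasts and overlap in endothelial cells, fibroblasts and microglia, Zfp979 is highest in endothelial cells at 21.5 CPM in the control, and Zfp933 overlaps in most classes.

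The 2 other genes measured within the run over all kept cells went the same way, and most of those around it did not. Of 72 other annotated genes inside it, 12 were in the expression table and 2 were measured over all kept cells: Gm13212, whose promoter holds the 15-base stretch, with 18 and 56 UMIs (2.96, 1.71 to 5.35), and Gm20707 with 92 and 195 (2.02, 1.57 to 2.61). Rex2 and Zfp534 had 0 and 1 UMI each, and Zfp600 had 0 in both. By class, 1 other gene of the run was measured in radial glia and was past 1.5-fold higher there. The 1 measured in intermediate progenitors was not. Of 43 measured genes within 2 Mb on either side, 1 was past 1.5-fold higher over all kept cells, where 11.1% of all measured genes were. It was Nppa, the natriuretic peptide gene, with 41 and 98 UMIs. Of the same genes 3 were lower (Miip, Plod1 and Cort), where 8.8% of all were. The summed ratio of the genes on either side was 0.925.

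Zfp872 and Zfp809 are neighbours on chromosome 9 and were higher in radial glia and astrocytes. ZFP809 is known in mouse embryonic cells as the factor that silences retroviruses by binding their proline tRNA primer binding site and recruiting TRIM28. Zfp809 (chr9:22225714-22243354, plus strand) had 70 and 164 UMIs in radial glia (9.23 and 24.8 CPM, ratio 2.69, 2.02 to 3.61) and 82 and 151 in astrocytes (8.67 and 24.6 CPM, 2.84, 2.16 to 3.76). In intermediate progenitors it had 70 and 41 UMIs (0.896, 0.594 to 1.34) and in neuroblasts 64 and 53 (0.952, 0.649 to 1.39). Its level in the other named classes lay between 3.38 and 12.2 CPM in either library, apart from mural cells, at 6.57 CPM in the control and 25.1 CPM from 9 UMIs in the Setdb1_cKO library, where cluster 23 held 25% of the cells. Cluster 23 also held 72.6% of the radial glia and 26.7% of the astrocytes of the Setdb1_cKO library, against 0.754% and 0.692% in the control. The higher level was thus seen in both glial classes, which have this cluster in part in common, and not in the neuronal precursors. The part of cluster 23 in the ratios of Zfp809, and of Zfp872 and Zfp941 below, was not tested.

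Zfp872 (chr9:22188090-22202123, plus strand), the gene just before it, had 10 and 64 UMIs in radial glia (1.32 and 9.67 CPM, ratio 7.34, 3.74 to 16) and 13 and 69 in astrocytes (1.37 and 11.2 CPM, 8.19, 4.49 to 16.1). These were most of the 185 UMIs of Zfp872 in the kept Setdb1_cKO cells, and intermediate progenitors and neuroblasts held almost none. Zfp810 (chr9:22276748-22307648, minus strand), the next member on the other side, had 41 and 39 UMIs in radial glia (1.09, 0.685 to 1.73) and 54 and 30 in astrocytes (0.857, 0.529 to 1.36). It was instead lower in intermediate progenitors, with 154 and 70 UMIs (0.695, 0.516 to 0.928). None of the 3 genes shares a 3′ word with another gene.

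Zfp941 (chr7:140807449-140822178, minus strand) stands alone in the genome and was higher in the same classes. It had 16 and 60 UMIs in radial glia (2.11 and 9.07 CPM, ratio 4.30, 2.44 to 7.99) and 33 and 99 in astrocytes (3.49 and 16.1 CPM, 4.63, 3.09 to 7.09). In neuroblasts it had 58 and 56 (1.11, 0.755 to 1.63). In control cells its level was highest in GABAergic neurons, with 10 and 42 UMIs (17.5 and 21.5 CPM), and in Cajal-Retzius cells, with 56 and 68 UMIs (16.6 and 18.6 CPM, ratio 1.12, 0.774 to 1.62). The Setdb1_cKO astrocytes came close to that level, at 16.1 CPM.

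**Figure D4:**
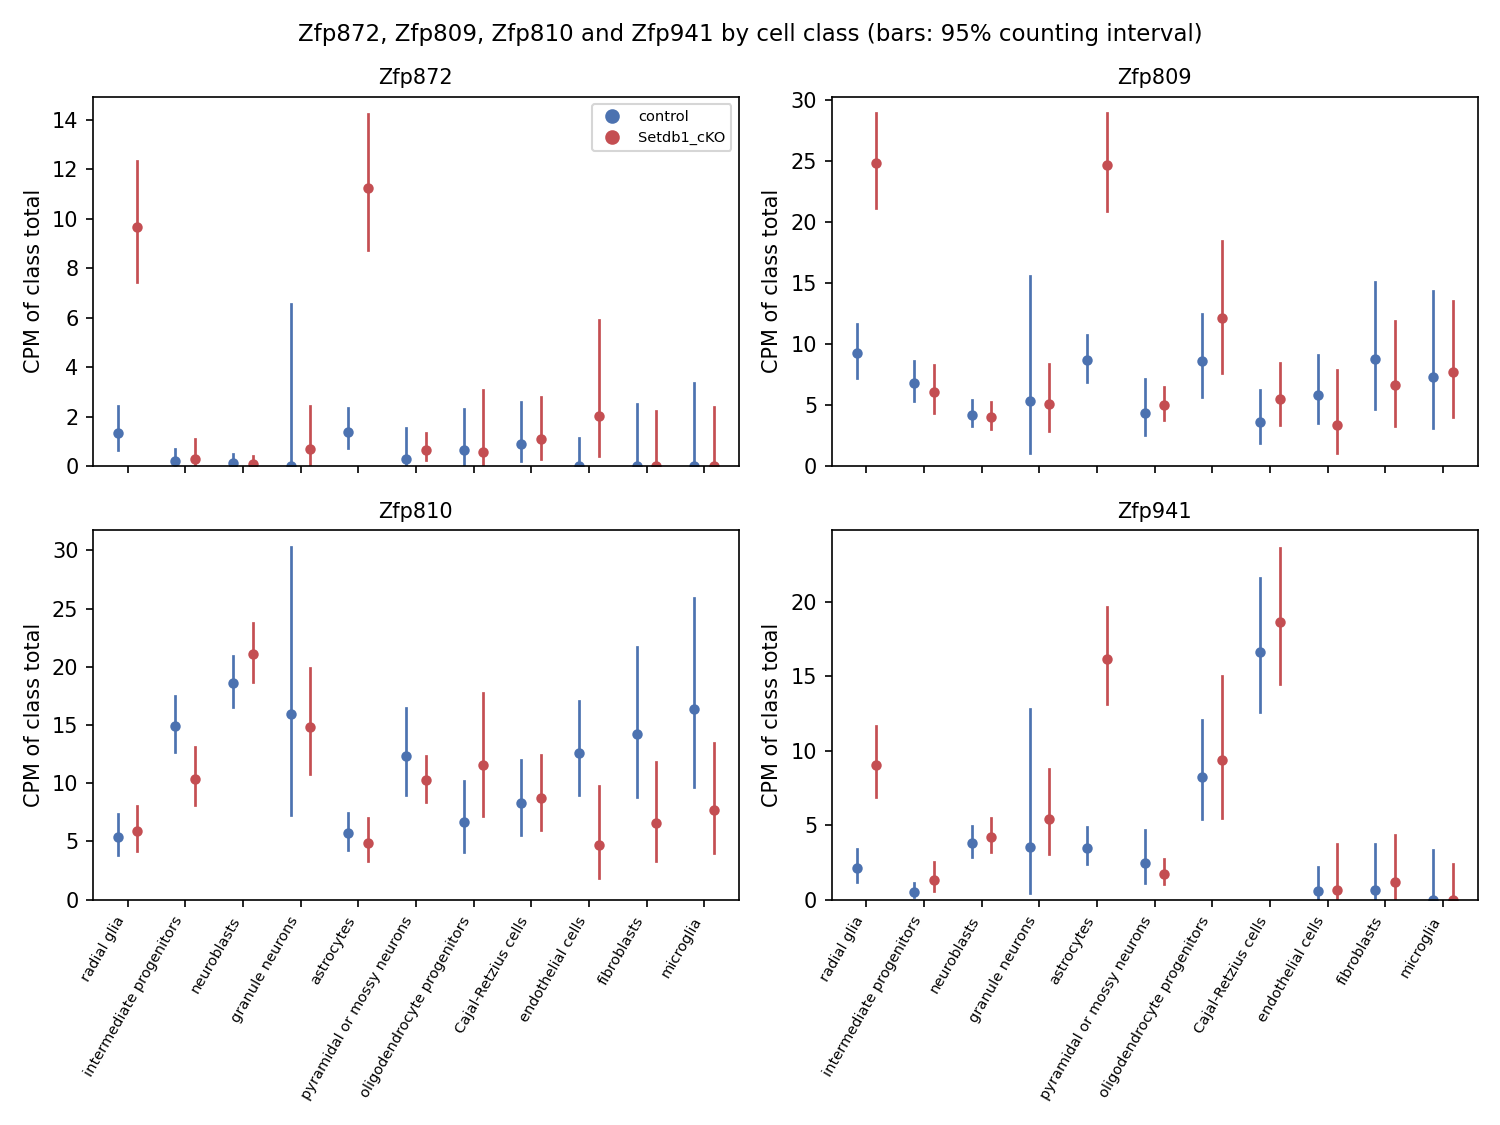
CPM of Zfp872, Zfp809, Zfp810 and Zfp941 in 11 cell classes of both libraries, with bars for the 95% counting interval of each count. Zfp872, Zfp809 and Zfp941 stand apart by genotype in radial glia and astrocytes, where Setdb1_cKO Zfp809 reaches 24.8 and 24.6 CPM, while Zfp810 overlaps there.

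In neuroblasts, the young neurons on the way to granule cells, 4 of 59 measured members outside the chromosome 4 run were past 1.5-fold higher. This share of 6.78% was near the 6.26% of all measured genes, in a class compared across largely different clusters. Zfp951 had 61 and 125 UMIs there (4.0 and 9.43 CPM, ratio 2.35, 1.72 to 3.25). Zfp808, with the most zinc finger patterns, had 15 and 39 (2.99, 1.61 to 5.83), and Zfp947 had 31 and 56 (2.08, 1.32 to 3.33). Zfp934, which neighbours Zfp808 on chromosome 13, had 117 and 170 (1.67, 1.31 to 2.13). Some of these were also higher elsewhere. Zfp951 had 0 and 26 UMIs in granule neurons (at least 1.65-fold higher, with the 0 taken as 3 counts over the class), 10 and 17 in astrocytes (2.62, 1.13 to 6.41) and 2 and 12 in fibroblasts (5.34, 1.19 to 49.2). Zfp808 had 3 and 10 UMIs in astrocytes (5.14, 1.32 to 29.1). Zfp934 stood at 1.48 (1.11 to 1.98) in radial glia and 1.43 (1.10 to 1.86) in intermediate progenitors. Over all kept cells Zfp951 had 172 and 389 UMIs, a ratio of 2.15 (1.79 to 2.59).

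Further members outside the chromosome 4 run were higher in some classes. Zfp938 and Zfp873 are neighbours on chromosome 10. Zfp938 stood at 1.37 (1.08 to 1.74) in astrocytes, and its ratio was 1.28 (1.04 to 1.58) for intermediate progenitors, 1.47 (1.25 to 1.72) for neuroblasts and 2.36 (1.2 to 5.30) for granule neurons. Zfp873 had 149 and 178 UMIs in intermediate progenitors (1.83, 1.46 to 2.29) and 95 and 118 in radial glia (1.42, 1.08 to 1.89). Zfp932, which in mouse embryonic stem cells binds endogenous retroviruses together with a near copy, had 204 and 185 in intermediate progenitors (1.39, 1.13 to 1.70), with 42.6% of its 3′ words shared. Zfp820 had 13 and 20 there (2.35, 1.11 to 5.15). In astrocytes Zfp952 had 102 and 102 UMIs, which is 10.8 and 16.6 CPM (1.54, 1.16 to 2.05), and in granule neurons Zfp944 had 2 and 48 (4.56, 1.19 to 38.7, but 1.18 with classes taken from Leiden clusters).

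Fewer members were lower. Zfp811 (on chromosome 17, beside Zfp871) had 228 and 70 UMIs in intermediate progenitors, 22.1 and 10.4 CPM, a ratio of 0.470 (0.354 to 0.616). In neuroblasts, its class of highest level, it had 741 and 569 UMIs at 48.6 and 42.9 CPM, a ratio of 0.882 (0.790 to 0.986). Its level in radial glia was the same in both libraries, at 3.95 and 3.93 CPM. Zfp811 thus climbed from radial glia to neuroblasts in both libraries, with a lower middle step in the Setdb1_cKO library. Over all kept cells it stood at 21.5 and 21.0 CPM.

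Zfp882 had 158 and 68 UMIs in intermediate progenitors (0.658, 0.488 to 0.880). Zfp968 had 28 and 9 in neuroblasts (0.369, 0.153 to 0.805), but all of its 3′ words are shared, and Zfp954 had 186 and 120 there (0.741, 0.584 to 0.938). In radial glia Zfp946 had 94 and 51 UMIs (0.622, 0.433 to 0.884) and Zfp949 69 and 37 (0.615, 0.401 to 0.929). Both of the last were not lower in astrocytes, where Zfp946 stood at 1.13 (0.760 to 1.68) and Zfp949 at 1.15 (0.760 to 1.73). In granule neurons Zfp949 had 10 and 22 UMIs (0.418, 0.190 to 0.988), Zfp865 16 and 41 (0.487, 0.267 to 0.929) and Zfp827, whose human counterpart binds telomeres in cells that lengthen them by recombination, 18 and 48 (0.506, 0.289 to 0.925).

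Among the 8 most abundant members the ratios over all kept cells were highest for Zfp938 at 1.42 (1.32 to 1.52) and Zfp846 at 1.21 (1.15 to 1.27). By class, Zfp846 stood at 1.27 (1.15 to 1.4) in neuroblasts, while its interval included 1 in radial glia (1.12, 0.946 to 1.32), astrocytes and intermediate progenitors. Zfp871 stood at 0.855 (0.766 to 0.953) in radial glia, 0.841 (0.750 to 0.942) in astrocytes and 0.950 (0.884 to 1.02) in neuroblasts. Zfp800 stood at 0.843 (0.727 to 0.977) in neuroblasts and 0.813 (0.680 to 0.969) in astrocytes, and Zfp821 at 0.840 (0.765 to 0.923) and 0.745 (0.592 to 0.934). Zfp830, Zfp950 and Zfp945 had ratios of 0.908 to 1.25 in astrocytes, radial glia, intermediate progenitors and neuroblasts. Over all kept cells Zfp869 stood at 0.890, Zfp930 at 0.825 and Zfp970, the 1 member past 1.5-fold lower there, at 0.622 (0.425 to 0.903) with 75 and 49 UMIs. Of 74 members measured over all kept cells, 11 were past 1.5-fold higher, where 11.1% of all genes were, and 1 was lower, where 8.8% were.

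Some members were enriched in a class over all other kept control cells, which does not make them particular to that class. Besides Zfp979, Zfp820 was highest in endothelial cells, with 54 UMIs at 16.6 CPM, 12.8 times (8.95 to 18.1) the level of all other kept control cells, and it kept that level in the Setdb1_cKO library at 16.2 CPM. Control mural cells held Zfp820 at 8.45 CPM, from 9 UMIs. Zfp961, which in mouse embryonic stem cells binds the lysine tRNA primer binding site of retroviruses, had 63 endothelial UMIs at 19.3 CPM, 1.99 times the rest (1.52 to 2.59). In Setdb1_cKO endothelial cells Zfp961 had 11 UMIs at 7.43 CPM, a ratio to control of 0.385 (0.183 to 0.736). Control mural cells and fibroblasts held Zfp961 as well, at 15.97 and 12.85 CPM. Its ratio was 0.525 (0.0985 to 1.81) in mural cells, from 17 and 3 UMIs. In fibroblasts, with 19 and 4 UMIs, the ratio was 0.187 (0.0464 to 0.564). Microglia went the other way, with 7 and 14 UMIs (1.41, 0.533 to 4.13), and border macrophages held 1 and 1. Setdb1 had a ratio of 1.03 in endothelial cells, and a link to it was not tested. Zfp941 was 6.12 times (4.45 to 8.28) higher in Cajal-Retzius cells than in the rest of the control library, and 3.16 times in the Setdb1_cKO library. Control GABAergic neurons held Zfp941 at a similar level, 17.5 CPM, but from 10 UMIs, too few for that class to be ranked here. In neuroblasts Zfp811 stood at 3.38 times the rest, Zfp954 at 2.27 and Zfp951 at 2.08 in control, and in intermediate progenitors Zfp930 stood at 2.19. The same classes held these genes above the rest in the Setdb1_cKO library, at 2.62, 1.49, 2.26 and 2.28 times, whereas Zfp961 was at 0.799 of the rest.

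**Figure D5:**
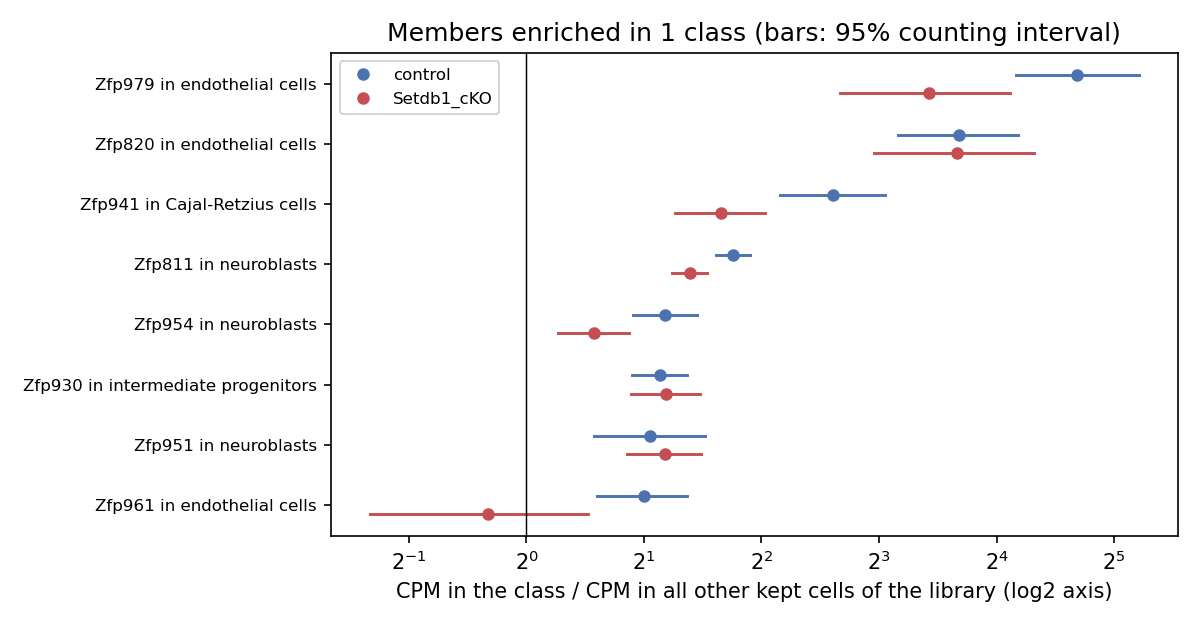
Ratio of CPM in 1 cell class to CPM in all other kept cells of the same library (log2 axis) for 8 members chosen for that ratio in the control, with bars for the 95% counting interval. Zfp979 and Zfp820 stand highest at 25.7 and 12.8 in control endothelial cells, and Zfp961 lies on different sides of 1 in the control and Setdb1_cKO libraries.

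The genes that act with these proteins were listed as 21 KRAB corepressor and related genes, all of them in the expression table. In radial glia 1 of the 21 was past 1.5-fold higher, where 6.27% of all genes were, and 1 lower, where 8.04% were. In neuroblasts, astrocytes and all kept cells it was likewise 1 and 1. Of all genes, 6.26%, 6.77% and 11.1% were higher there in that order, and 5.97%, 5.86% and 8.8% lower. The lower one of the 21 was Setdb1 each time. The higher one was Atf7ip, the partner that stabilises SETDB1 in the nucleus, at 84.4 and 193 CPM in radial glia (2.29, 2.08 to 2.52) and 126 and 362 CPM in neuroblasts (2.87, 2.72 to 3.02). Trim28 stood at 93.3 and 72.8 CPM in radial glia (0.780, 0.694 to 0.877), and Tasor, a subunit of the HUSH silencing complex, at 67.4 and 94.1 CPM (1.4, 1.24 to 1.57). Intermediate progenitors had 2 higher, Atf7ip and Tasor (1.91, 1.67 to 2.19), against 4.8% of all genes. Another 2 were lower there, Setdb1 and Zfp568, against 7.51%. Granule neurons had 3 of 20 higher, Atf7ip, Tasor and Morc2a, against 11.1% of all genes, and 1 lower, Setdb1, against 15.2%. Ependymal cells had the same 3 of 18 higher, against 18% of all genes, and 4 lower, against 11.8%, which were Setdb1, Smarcad1, Chd3 and Daxx. The median log2 ratio of the 21 was -0.11 in radial glia and 0.05 in neuroblasts.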

How the data were processed

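Dentate gyrus cells of 1 control and 1 Setdb1_cKO library at postnatal day 5 were prepared with a 10x Genomics 3′ kit, per the labels' protocols. The submitters' processing notes name Cell Ranger 7.1.0, Seurat and the build mm10. The matrices that the authors deposited hold UMI counts as whole numbers, with no normalization.

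Cells with at least 1000 UMIs, 500 genes and at most 10% mitochondrial UMIs were kept, and doublets called with Scrublet in scanpy 1.11.5 were removed (5.27% and 5.95% of scored cells). Each cell took the class with the highest score over 8 markers per class (score at least 0.5, margin at least 0.1, both set after the data were seen). Erythroid cells, mixed with endothelial genes, were not described. Counts were summed per class and library and scaled to CPM of the class total. Ratios have exact conditional Poisson intervals of 95%, and a ratio against 0 counts uses 3 counts over the class. No test was run, since each genotype has 1 library. The statistics were checked on simulated data.

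Named members are the 8 highest and 8 lowest by the interval bound nearest to 1 in each of 5 classes and over all kept cells, the 8 most abundant, the 8 most class-enriched in control, and any past 2-fold in 3 or more classes. Nppa, Miip, Plod1, Cort and the rare members of the chromosome 4 run were named after their values were seen. The members and lists were chosen with earlier results of these data known. Gene positions and 3′ ends came from GENCODE vM21, in which all 88 identifiers matched, and promoters from RefSeq, in which 79 matched. Python 3.11.15, numpy 2.4.6, scipy 1.17.1 and pandas 2.3.3 were used. Alternatives were other UMI minimums, cell filters, doublets kept, median scaling, Leiden clusters (resolution 1), a margin of 0.2 and a 2-fold limit.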

Additional observations from a re-analysis of the deposited data

How the results depend on the processing

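Every comparison rests on 1 library per genotype, so differences between animals, sexes and preparations cannot be told apart from genotype, and no replicate could be left out. No paired analysis was possible because each genotype had 1 library. The chromosome 4 run stayed higher in the Setdb1_cKO library under each alternative run in the 5 main classes. Without its top member Zfp933 (chosen after seeing the data) the run stood at 4.2 in radial glia and 5.64 in astrocytes, at 4.61 and 4.53 in intermediate progenitors and neuroblasts, and at 3.18 over all kept cells. The summed ratio of all members moved beyond its counting interval to 1.14 in radial glia, 1.07 in neuroblasts and 1.09 over all kept cells with median scaling, to 1.03 in radial glia, 1.07 in intermediate progenitors and 1.06 in granule neurons with classes from Leiden clusters, to 1.06 over all kept cells without Zfp871, and to 0.994 in intermediate progenitors and 1.02 over all kept cells without the chromosome 4 run (chosen after seeing the data). Counts of members past 1.5-fold rest on few UMIs and moved more. The shares of all genes at these other settings are not given here. The counts below thus show only how far the numbers moved, and not how they stand against all genes. At a minimum of 100 UMIs the higher members numbered 2 of 37 in radial glia and 3 of 36 in astrocytes, 2 of 43 and 3 of 53 in intermediate progenitors and neuroblasts, and 2 of 6 in granule neurons, and the lower ones 0 in neuroblasts and granule neurons. At a minimum of 10 UMIs the higher and lower members numbered 16 and 2 in astrocytes, 11 and 6 in intermediate progenitors, and 20 and 5 in granule neurons. Past 2-fold there were 0 lower in radial glia, 3 higher and 1 lower in intermediate progenitors, 1 lower in neuroblasts and 6 higher in granule neurons. With Leiden clusters there were 4 lower in radial glia, 11 higher in intermediate progenitors, 12 higher and 0 lower in neuroblasts, 3 higher and 0 lower of 6 in granule neurons, and 1 lower in astrocytes. The looser cell filter gave 4 lower in radial glia and 1 in astrocytes, the stricter one 0 in neuroblasts and 2 in astrocytes, doublets kept 1 in radial glia and 1 in neuroblasts, and the wider margin 1 in neuroblasts and 1 in astrocytes. Of the ratios of single members recomputed, 1100 stayed within their counting intervals and 12 did not, most of these in granule neurons with Leiden clusters, where Zfp944 stood at 1.18. The bound for Zfp992 in granule neurons was 1.38 with the wider margin. Apart from fewer genes or cells entering, the cause of these shifts was not tested. Members under 100 UMIs in a class have counting intervals that span a wide range of ratios.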
